A study of Mus musculus with 16 samples.

Results

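Mucins and the proteins secreted with them by goblet cells were described in the colon of mouse pups at weaning. The 10 genes were Muc2, Fcgbp, Zg16, Tff3 and Agr2, whose products are secreted or act in the secretory pathway, and Muc1, Muc3, Muc4, Muc13 and Muc20, whose products are membrane mucins. They were found by their exact gene name on the arrays, where all 10 were present among 36711 genes tested, and they were read by 18 probes. Each of the 10 genes had at least 1 probe well above background on all 16 arrays.

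Goblet cells fill the colonic mucus layer. Muc2 is the gel-forming mucin that builds this layer, and Fcgbp, Zg16 and Tff3 are secreted into it alongside Muc2. Agr2 is a protein disulfide isomerase of the endoplasmic reticulum that mucin folding requires. Membrane mucins stay anchored at the apical surface of epithelial cells, where they form part of the glycocalyx.

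The study asked how birth by caesarean section altered the gut barrier of outbred SWISS mice (RjOrl:SWISS). In the CSD group, 8 pups were taken by hysterectomy near term and raised by foster mothers that had given birth vaginally. In the VD group, 8 pups were born vaginally and litters were exchanged between mothers, so that neither group stayed with the mother that bore it. Both groups were raised under specific-pathogen-free conditions, and whole colon RNA was hybridized to 1-colour arrays. The CSD pups carried the labels of mother 3 (2 females and 2 males) and mother 4 (2 females and 2 males). The VD pups carried those of mother 5 (2 females and 3 males) and mother 6 (3 males, no female). The labels do not say whether a mother number is the birth or the foster mother, while the paper's model used the biological mother. Pups that share a mother label are called a litter here, and pups are named by the numbers in their labels. Each group thus rests on 2 litters, and a difference between delivery modes can be told apart from one between litters only as far as 2 litters against 2 allow. Each of the 2 slides held 4 CSD and 4 VD pups. Between 58.7% (VD 11) and 64.9% (VD 4) of the spots of an array were well above background. Of the markers of the labelled tissue, 9 of 9 epithelial and 10 of 10 absorptive colonocyte genes were above background on all arrays.

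Values are normalized intensities on the log2 scale, on which a difference of 1 is a 2-fold change. They can be compared between pups for 1 probe and not between genes, since probes differ in how strongly they bind. Because RNA came from whole tissue, fewer cells of a type and less RNA per cell cannot be told apart in any value.

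Probes of Muc1, Muc3 and Fcgbp are shown, each 60 bases long. They are written 5′ to 3′, with positions from the array files (mouse build mm9). For Fcgbp the probe on the reference transcript is shown, and not A_55_P1977938, which had the larger difference. The Muc1 probe spans 968 bases of the genome, more than its own length, so it crosses at least 1 intron. In the Muc3 probes the capitals mark triplets beginning with AC, which code for threonine, in the reading frame without a stop codon that held most of them. Threonine is a site of the O-glycans that mucins carry.
Muc1, probe A_66_P125683, chr3:89036007-89036974, plus strand: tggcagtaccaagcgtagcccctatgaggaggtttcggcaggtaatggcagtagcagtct
Muc3, probe A_55_P2075253, chr5:137626469-137626528, minus strand: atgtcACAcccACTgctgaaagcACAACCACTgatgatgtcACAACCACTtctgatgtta
Muc3, probe A_55_P2741804, chr5:137634621-137634680, minus strand: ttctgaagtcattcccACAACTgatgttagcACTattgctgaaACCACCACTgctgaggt
Fcgbp, probe A_51_P380078, chr7:28905517-28905576, plus strand: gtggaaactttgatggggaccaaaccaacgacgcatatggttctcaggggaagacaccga
The first Muc3 probe held 8 threonine triplets among 19 and the second held 6 among 19. The pair had 6 of their 8-base words in common. RefSeq lists a gene named Muc3a beside Muc3, and which of these genes each probe reads was not tested.

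CSD and VD pups were compared by a linear model in limma, with sex as a fixed effect and litter as a random effect. Of the 10 genes, 1 passed an adjusted p of 0.05 (Benjamini-Hochberg over all genes), Muc1, beside 1.25% of all genes tested. At an unadjusted p under 0.05 there were 3 of 10 (Muc1, Fcgbp and Muc20), beside 14.5% of all genes. Among the 5 secreted or secretory genes, 4 were on the higher side in CSD pups, with a median difference of 0.16, and none was called. All 5 membrane mucins were on the lower side, with a median of -0.29, and 1 was called. In some of the alternatives tried, Muc3, Muc4, Muc13, Zg16 and Tff3 changed side. The median over all genes was 0.003, and 51.7% of all genes were on the higher side.

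**Figure D1:**
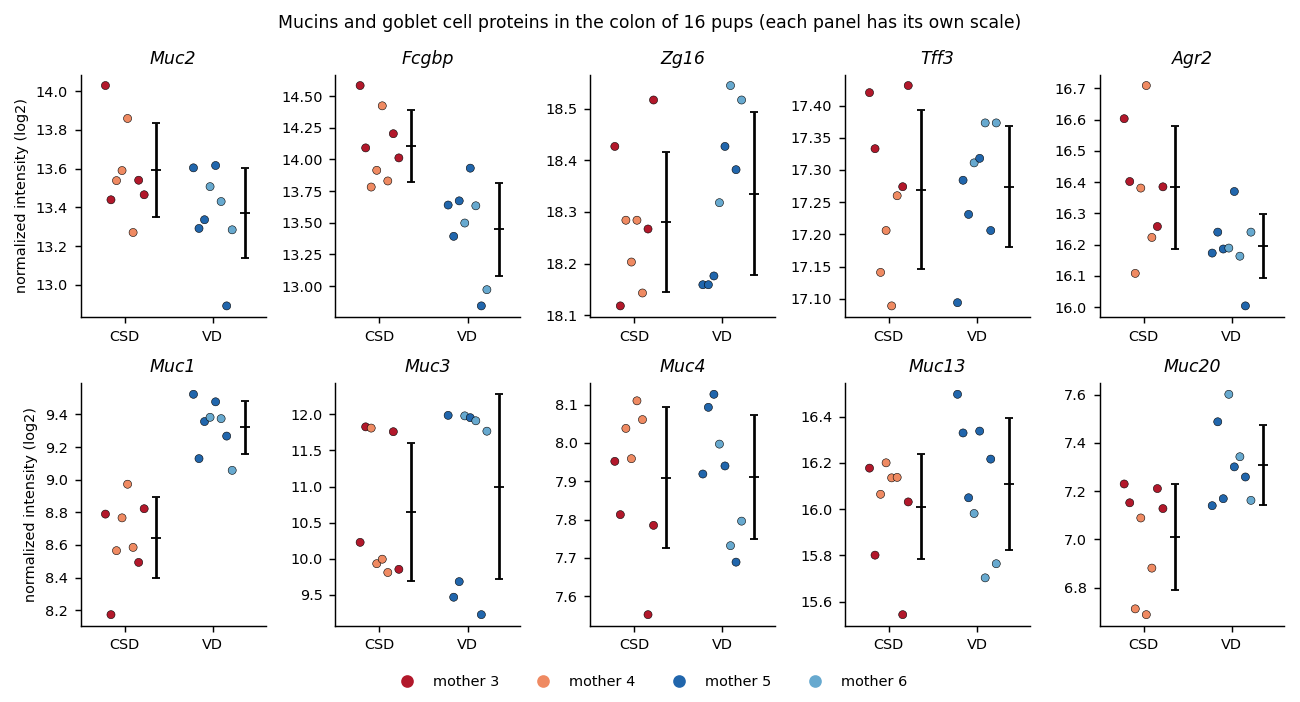
Normalized intensity (log2, vertical axis, 1 scale per panel) of each gene in the 8 CSD and 8 VD pups; points are pups coloured by mother label, and bars show the mean ± SD of a group. In the Muc1 panel the CSD points end at 8.97 and the VD points start at 9.06, while in the Muc3 panel the pups of both groups fall into 2 sets.

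Muc1 was lower in CSD pups. Muc1 is a membrane mucin with a cytoplasmic tail that takes part in signalling. Its normalized intensity lay between 8.17 and 8.97 in CSD pups (median 8.67) and between 9.06 and 9.52 in VD pups (median 9.36). No CSD pup reached the lowest VD pup, VD 6. Groups without overlap were found for 0.493% of the genes. The means were 8.65 ± 0.25 in CSD and 9.32 ± 0.16 in VD pups (SD, n = 8 each). The fitted difference was -0.67 on the log2 scale (SE 0.11, adjusted p = 0.00807 in limma), so that CSD pups had 62.6% of the VD intensity. Permuting the pups over all assignments, which leaves litter and sex aside, gave an exact two-sided p of 0.000155. This is the smallest value that the 12870 assignments allow.

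The lower Muc1 signal was present in each part of the design. The difference of the means was -0.77 on slide 1 and -0.58 on slide 2. It was -0.60 in males and -0.81 in females, and the test of the difference between the sexes did not pass (adjusted p = 0.981 for the interaction). Litter means were 8.57 and 8.72 for mothers 3 and 4 and 9.35 and 9.27 for mothers 5 and 6. Both CSD litter means thus lay below both VD litter means, an arrangement in one or the other direction that 42.0% of all genes showed. The call was kept when any single pup was left out and was lost without the litter of mother 5 (-0.58, adjusted p = 0.156). With the 4 litter means as the samples, the adjusted p was 0.233.

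Muc20, a small membrane mucin of epithelial cells, was measured by a pair of probes. Its gene value was between 6.69 and 7.23 in CSD pups (median 7.11) and between 7.14 and 7.60 in VD pups (median 7.28). The means were 7.01 ± 0.22 and 7.31 ± 0.16 (SD, n = 8 each), with 5 of the 8 CSD pups below every VD pup. The fitted difference of -0.29 (SE 0.10) did not pass the threshold (adjusted p = 0.159, and exact permutation p = 0.00591 with litter and sex left aside). It was -0.113 without the litter of mother 4, -0.459 without that of mother 3 and -0.811 in the deposited matrix (adjusted p of 0.618, 0.0652 and 0.105). The probes differed. Probe A_51_P211506 was above background on all arrays and gave 7.31 to 8.34 in CSD pups against 8.29 to 9.18 in VD pups. In the fit across 56366 probes, of which 1.74% were called, its difference was -0.66 (SE 0.18, adjusted p = 0.0735). Probe A_55_P2164744 was above background on 0 arrays, and the gene value is the mean of both probes. Within the CSD group, Muc20 was lower in the litter of mother 4 (mean 6.84) than in that of mother 3 (mean 7.18), a difference of -0.34 (SE 0.11, adjusted p = 0.387).

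Muc13, an abundant membrane mucin of the intestine, and Muc4, a large membrane mucin, were not called. Muc13 was 15.54 to 16.20 in CSD pups (median 16.10) and 15.70 to 16.50 in VD pups (median 16.13). Its difference was -0.08 with a 95% interval from -0.35 to 0.19 (adjusted p = 0.836). Muc4 was 7.55 to 8.11 in CSD pups (median 7.95) and 7.69 to 8.13 in VD pups (median 7.93). Its difference of -0.005 (SE 0.089) had an interval from -0.19 to 0.18 (adjusted p = 0.988). With the brightest probe alone it was 0.010, with a larger SE of 0.185. Of the 4 Muc4 probes, A_51_P245633 was above background on 0 arrays. The 3 others gave differences between -0.04 and 0.008.

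Muc3 had the widest spread of the 10 genes, with an SD of 1.11 over the 16 pups. Muc3 is a large intestinal membrane mucin of enterocytes. Its gene value lay between 9.81 and 11.83 in CSD pups (median 10.11) and between 9.23 and 11.98 in VD pups (median 11.84). The fitted difference was -0.40 with an interval from -1.60 to 0.80 (adjusted p = 0.809), wide enough to hold a large change in either direction.

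The spread of Muc3 came from 1 of its probes. On probe A_55_P2075253, 8 pups lay between 10.33 and 11.30 and the 8 others between 14.92 and 15.27. No pup fell in the gap of 3.63 between them, which corresponds to a 12.3-fold step in intensity. The high pups were CSD 3, CSD 5, CSD 7, VD 4, VD 6, VD 7, VD 8 and VD 9, which is 3 of 8 CSD and 5 of 8 VD pups. The litter of mother 3 had 2 high pups of 4, that of mother 4 had 1 of 4, that of mother 5 had 2 of 5 and that of mother 6 had 3 of 3. Of the females, 3 of 6 were high, and of the males, 5 of 10. Each slide held 4 high pups.

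The second Muc3 probe did not show this split. Probe A_55_P2741804 lay between 8.60 and 9.16 in CSD pups (median 8.78) and between 8.13 and 8.82 in VD pups (median 8.58). Its difference was 0.29 (SE 0.11, adjusted p = 0.193), on the opposite side from the difference of -1.08 (SE 1.09, adjusted p = 0.712) of the first probe. What the step on the first probe reflects was not tested.

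**Figure D2:**
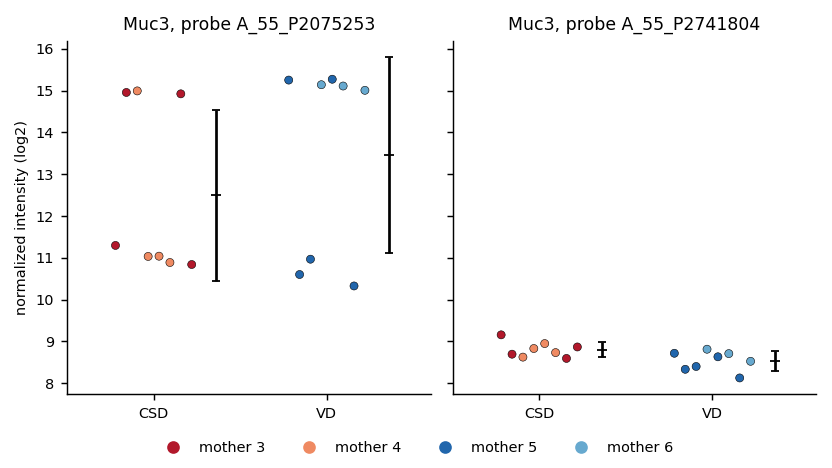
Normalized intensity (log2, vertical axis) of the 2 Muc3 probes in CSD and VD pups; points are pups coloured by mother label, and bars show the mean ± SD. On the left probe 8 pups lie above 14.9 and 8 below 11.3, whereas on the right probe all 16 lie between 8.13 and 9.16.

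Among 20538 genes above background on all arrays, the 5 that followed the Muc3 value most closely over the 16 pups were Lmx1b, Nfatc2, Zranb1, Bet1l and Gpr17. Since the pups fall into separate sets, no correlation over all of them is given. In the 8 pups low on the first Muc3 probe Lmx1b, a LIM homeobox transcription factor, was 6.99 to 7.13, and in the 8 high pups it was 7.31 to 7.40. Within the sets, its correlation with Muc3 was 0.344 in the low and -0.604 in the high pups (n = 8 each). Nfatc2, a calcium-regulated transcription factor, was 8.26 to 8.47 in the low and 8.48 to 8.83 in the high pups, with correlations of -0.077 and 0.615 within the sets. The correlations within the low and high sets were 0.406 and 0.535 for Zranb1, -0.816 and 0.288 for Bet1l and 0.443 and 0.455 for Gpr17. Gpr17 overlapped between the sets (7.12 to 7.84 against 7.57 to 8.10). These genes were picked for their likeness, so this is a description and no test.

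Fcgbp was the secreted gene with the largest difference. Its product, the IgGFc-binding protein, is a large protein with von Willebrand domains that is linked to the Muc2 network. Its gene value was 13.78 to 14.58 in CSD pups (median 14.05) and 12.84 to 13.93 in VD pups (median 13.57), and 5 of the 8 CSD pups lay above every VD pup. The means were 14.11 ± 0.28 and 13.45 ± 0.37 (SD, n = 8 each). The fitted difference of 0.59 (SE 0.15) put the CSD pups at 151% of the VD intensity and did not pass the threshold (adjusted p = 0.0722). The exact permutation p was 0.000622, which leaves litter and sex aside and is not adjusted over genes. The difference of the means was 0.54 on slide 1 and 0.77 on slide 2.

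The 2 Fcgbp probes differed in size and not in direction. Probe A_55_P1977938 (chr7:28873024-28873083, plus strand) was 11.24 to 12.14 in CSD pups and 9.76 to 11.07 in VD pups, with no overlap (found for 0.493% of genes, not counted over probes). Its difference was 0.88 (SE 0.20), which was called in the fit across probes (adjusted p = 0.0333). It was no longer called with a normexp offset of 0 (adjusted p = 0.0642) or with the scanner's own background correction (adjusted p = 0.0547). The array files assign this probe to a transcript of its own, ENSMUST00000140004. Probe A_51_P380078, on the reference transcript, was 16.32 to 17.06 in CSD and 15.68 to 16.79 in VD pups, with a difference of 0.30 (SE 0.14, adjusted p = 0.333).

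Muc2 and Agr2 were on the higher side in CSD pups and neither was called. Muc2 was 13.27 to 14.03 in CSD pups (median 13.54) and 12.89 to 13.62 in VD pups (median 13.38), and the ranges overlapped for all but 2 CSD pups. Its difference was 0.20 with an interval from -0.05 to 0.46 (adjusted p = 0.48, and exact permutation p = 0.0845 with litter and sex left aside). Agr2 was 16.11 to 16.71 in CSD pups (median 16.38) and 16.004 to 16.37 in VD pups (median 16.19), with 5 of the 8 CSD pups above every VD pup. Its difference was 0.16 with an interval from -0.003 to 0.32 (adjusted p = 0.357, and exact permutation p = 0.0300 with litter and sex left aside). Without CSD 8 the differences were 0.104 for Muc2 (adjusted p = 0.726 in limma) and 0.105 for Agr2 (adjusted p = 0.551).

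Zg16, a lectin that binds Gram-positive bacteria, and Tff3, a trefoil peptide of mucosal repair, were at close levels in both groups. Zg16 was 18.12 to 18.52 in CSD pups (median 18.27) and 18.16 to 18.55 in VD pups (median 18.35). Its difference of -0.03 had an interval from -0.19 to 0.12 (adjusted p = 0.88). Tff3 was 17.09 to 17.43 in CSD pups (median 17.27) and 17.09 to 17.37 in VD pups (median 17.30), and its difference of 0.007 had an interval from -0.11 to 0.13 (adjusted p = 0.972). For these 2 genes a difference beyond 0.19 in either direction lies outside the interval of the main fit. This bound holds for quantile normalized values only. After subtraction of the 75th percentile instead, the differences were 0.069 (SE 0.076) for Zg16 and 0.071 (SE 0.064) for Tff3.

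**Figure D3:**
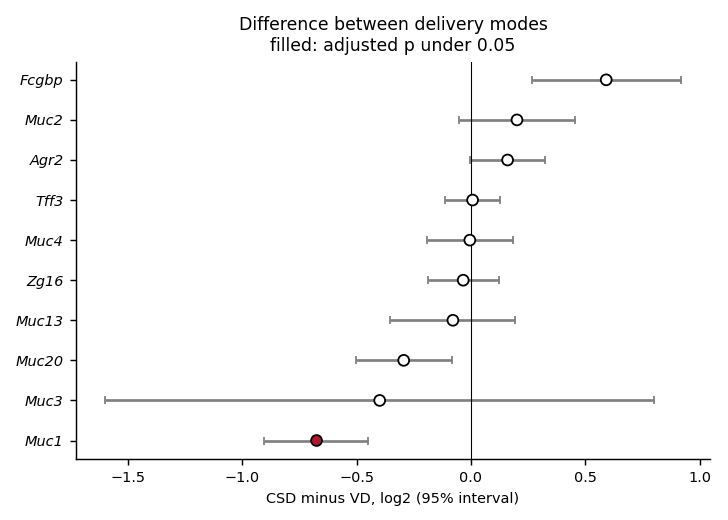
Difference between CSD and VD pups (log2, horizontal axis) of the 10 genes, with the 95% interval of the limma fit; a filled point marks an adjusted p under 0.05. Only Muc1 is filled, at -0.67, and the interval of Muc3 is the widest.

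From pup to pup Muc2 varied with Fcgbp in both measures used, and with Agr2 by Pearson r only. Of the 9 other genes set against Muc2 over the 16 pups, Fcgbp had a Pearson r of 0.837 and a Spearman rho of 0.694 (permutation p of 0.00011 and 0.00405, and 0.00099 and 0.0364 after adjustment over the 9). The r was 0.849 in the CSD and 0.843 in the VD pups, 0.806 on slide 1 and 0.866 on slide 2. Without VD 11 and CSD 8, the pups farthest from the Muc2 median, it was 0.662. For Agr2 the r was 0.777 and the rho 0.521, of which the r passed (adjusted permutation p of 0.00261 and 0.182), and r was 0.615 without the same 2 pups. The other 7 genes did not pass in either measure over all pups. These permutations treated the 16 pups as independent and left litter, delivery and sex aside. With litter means subtracted, the r with Muc2 was 0.875 for Fcgbp and 0.712 for Agr2, given with no test. For Muc1, whose level differs between the groups, r was -0.133 over all pups, 0.551 in the CSD and 0.606 in the VD pups (n = 8 each), a description with no test. VD 11 had the lowest Muc2, Fcgbp and Agr2 of all pups and also the lowest share of spots above background. CSD 8 had the highest Muc2 and Fcgbp, and its array had 200 outlier spots, which were left out. Only CSD 7 had more (205), and the next highest was VD 11 (107). The part of array quality in these relations was not tested.

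**Figure D4:**
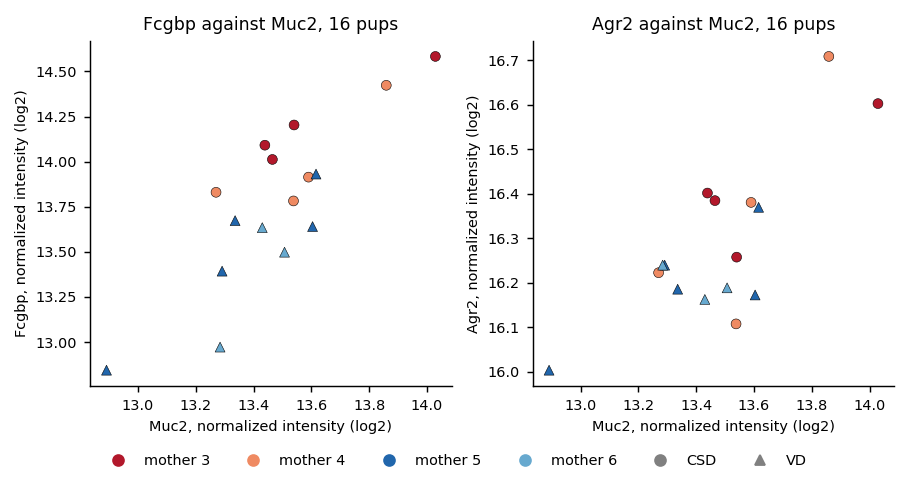
Fcgbp (left) and Agr2 (right) against Muc2, normalized intensities (log2) of the 16 pups; circles are CSD and triangles VD pups, coloured by mother label. VD 11 lies at the lower left of both panels, at 12.89 for Muc2.

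Among the genes that followed Muc2 most closely by the same rule were Pmm2 (r = 0.877), Tep1 (0.855), 9030425P06Rik (0.854) and Fndc3a (0.840), over 16 pups and 20538 genes. Pmm2 is the phosphomannomutase that supplies mannose for protein glycosylation. They are given as a description, with no test.

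For Muc2, Fcgbp and Agr2, the 150 bases before their RefSeq start sites are shown (build GRCm38.p6, 5′ to 3′ on the gene's strand). Capitals mark CAGCTG, an E-box of the kind bound by basic helix-loop-helix factors.
Muc2, chr7:141690190-141690339, plus strand: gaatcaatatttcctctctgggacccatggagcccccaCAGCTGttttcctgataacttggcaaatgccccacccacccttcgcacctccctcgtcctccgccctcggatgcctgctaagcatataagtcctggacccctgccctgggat
Fcgbp, chr7:28071086-28071235, plus strand: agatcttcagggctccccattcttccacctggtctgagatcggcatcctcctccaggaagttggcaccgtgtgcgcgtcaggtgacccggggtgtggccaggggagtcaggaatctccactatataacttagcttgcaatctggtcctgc
Agr2, chr12:35992775-35992924, plus strand: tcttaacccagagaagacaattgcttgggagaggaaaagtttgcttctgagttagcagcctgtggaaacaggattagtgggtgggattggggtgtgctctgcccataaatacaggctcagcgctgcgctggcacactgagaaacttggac
Windows were found for 8 of the 10 genes. In the 250 bases before the start, CAGCTG was present in Muc2 (112 bases before it) and in Fcgbp (208 bases before it, outside the stretch shown) and not in Agr2. The same letters, which read alike on both strands, were present in 13.0% of all 32851 windows. The forkhead motif TGTTTAC, sought on both strands, was in none of these 3 windows and in 3.17% of all. TATAAA, on both strands, was in the Muc2 window (174 bases before the start) and in 12.4% of all.

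Sex and litter were compared in the same way. Between females and males 0 of 10 were called in limma, 0 of 10 reached an unadjusted p of 0.05, and the shares of all genes were 0.0599% and 6.45%. The interaction of delivery and sex gave 0 of 10 by either measure, beside 0.00272% and 4.72% of all genes. Between the CSD litters of mothers 4 and 3, 0 of 10 were called, beside 0.0872% of all genes, and 4 reached an unadjusted p of 0.05 (Tff3, Muc4, Muc13 and Muc20), beside 7.68%. Between the VD litters of mothers 6 and 5, 1 of 10 was called, Muc13, beside 0.874% of all genes, and 2 reached an unadjusted p of 0.05 (Muc13 and Muc3), beside 11.5%. Muc13 was lower in the pups of mother 6 (mean 15.82) than in those of mother 5 (mean 16.29). The fitted difference, adjusted for sex since mother 6 had no female pup, was -0.54 (SE 0.12, adjusted p = 0.0487). This call stood close to the threshold, and the adjusted p was between 0.0607 and 0.0839 in the 3 alternatives tried.

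The wider machinery of mucus was read from gene lists. Other mucins gave 0 calls among the 7 of 12 listed that were on the array (limma; 0 at an unadjusted p under 0.05), and the gastric mucin Muc5ac, above background on all arrays, was at 6.81 ± 0.11 in CSD and 6.89 ± 0.14 in VD pups. The 2 genes with the smallest p of this list, Mucl2 and Mucl1, were not well above background on 16 and 15 of the 16 arrays, so no difference is given for them. Among 13 other secreted goblet cell genes 0 were called and 2 reached an unadjusted p of 0.05, a share near the 14.5% of all genes. These were Reg4 and Clca1. Reg4, a secreted lectin of the Reg family, was 14.52 to 15.72 in CSD and 13.87 to 14.80 in VD pups, with a difference of 0.54 (SE 0.17, adjusted p = 0.13). Clca1, a metalloprotease of the mucus that cleaves Muc2, differed by 0.18 (SE 0.07, adjusted p = 0.208). Over the 39 alternatives tried the difference ran from 0.309 to 0.676 for Reg4 and from 0.085 to 0.261 for Clca1.

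Itln1, the lectin intelectin-1, was the most variable of these secreted genes and was singled out after its values were seen. In CSD pups it was 10.58 to 16.11 (median 15.14) and in VD pups 8.65 to 16.21 (median 9.45). The ranges overlapped, with 5 VD pups below every CSD pup. The sexes were spread unevenly, with 4 females in the CSD group and 2 in the VD group. All 6 females were at 15.03 or above, as was 1 of the 10 males (CSD 6). The difference between females and males, fitted beside delivery in limma, was 4.27 (SE 0.82, adjusted p = 0.114) and was not called. This pattern with sex was also seen before it was fitted. The fitted difference of Itln1 between CSD and VD pups, 1.57 (SE 0.81), was not called (adjusted p = 0.4).

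A list of 16 genes of goblet cell differentiation held transcription factors and genes of the Notch pathway (Notch1, Notch2, Dll1, Dll4 and Hes1), which opposes the secretory fate. Of these, 9 were on the higher and 7 on the lower side in CSD pups, beside 51.7% of all genes on the higher side, and the median difference was 0.06. Limma called 0 of them, and 6 had an unadjusted p under 0.05, beside 14.5% of all genes. These were Foxa2, Spdef, Gfi1, Atoh1 and Notch1 on the higher side and Dll4 on the lower side. Foxa2, a forkhead factor of secretory cells, was 12.84 to 13.28 in CSD and 12.40 to 12.86 in VD pups. Its difference of 0.34 (SE 0.08) had an adjusted p of 0.0506. Spdef, the Ets factor of goblet cell maturation, was 13.44 to 13.85 in CSD and 13.05 to 13.53 in VD pups, and 7 of the 8 CSD pups lay above every VD pup. Its difference was 0.29 (SE 0.07, adjusted p = 0.0526), and over the 39 alternatives tried it ran from 0.127 to 0.38. Gfi1 (0.21, adjusted p = 0.0674) and Atoh1 (0.32, adjusted p = 0.131), which act early in the secretory lineage, the Notch receptor gene Notch1 (0.53, adjusted p = 0.164), the Notch ligand gene Dll4 (-0.15, adjusted p = 0.318) and the epithelial Ets factor Elf3 (-0.23, adjusted p = 0.365) were named after their values were seen. The difference of Notch1 had the largest size in the list.

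Of 24 genes of mucin folding and granule secretion, 3 were called and all 3 were higher in CSD pups, beside 0.706% of all genes called higher. The list's median difference was 0.008. Pdia3, a disulfide isomerase of the endoplasmic reticulum, was 11.26 to 11.71 in CSD and 10.87 to 11.27 in VD pups. Its difference was 0.33 (SE 0.06, adjusted p = 0.0195), with 7 of the 8 CSD pups above every VD pup. Pdia6, of the same enzyme family, was 15.05 to 15.27 in CSD and 14.89 to 15.07 in VD pups, a difference of 0.17 (SE 0.04, adjusted p = 0.035). Groups without overlap were found for 0.493% of all genes, and Rab27a, a small GTPase that docks secretory granules, was among them. It was 7.667 to 7.90 in CSD and 7.39 to 7.664 in VD pups, a narrow margin. Its difference was 0.23 (SE 0.05, adjusted p = 0.0288). The size of the Rab27a difference ran from 0.126 (without the litter of mother 5, adjusted p = 0.335) to 0.401 (with its brightest probe, adjusted p = 0.0168).

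Sugar chains were read in 3 lists. Among 22 genes of O-glycan initiation and cores, 1 was called, Galnt7, which adds the sugar N-acetylgalactosamine to partly glycosylated mucins. It was 11.147 to 11.64 in CSD and 10.89 to 11.139 in VD pups, without overlap by a narrow margin (found for 0.493% of all genes). Its difference was 0.27 (SE 0.06, adjusted p = 0.0442). Among 27 genes of sialylation and sulfation, the modifications that make mucins acidic, 1 was called. This was Chst2, a sulfotransferase, which was lower in CSD pups (7.37 to 7.67 against 7.67 to 8.01), by -0.30 (SE 0.07, adjusted p = 0.0381). The shares of all genes called higher and lower were 0.706% and 0.548%.

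Among 13 genes of fucosylation and neutral caps, Fut8 was higher and B4galnt2 lower in CSD pups. Fut8, which adds the core fucose of N-glycans and is not an enzyme of mucin O-glycans, was 9.62 to 9.92 in CSD and 9.26 to 9.61 in VD pups. Its difference was 0.27 (SE 0.06, adjusted p = 0.0364), and with its brightest probe alone it was 0.138 and not called (adjusted p = 0.246), nor was it called without the litter of mother 5 (0.176, adjusted p = 0.335). B4galnt2, which adds N-acetylgalactosamine to the ends of glycans, was 8.61 to 9.62 in VD pups (median 9.10). In CSD pups it ranged from 6.19 to 9.43 (median 6.36). All 4 pups of mother 4 lay between 6.24 and 6.45, and CSD 8 of mother 3 was at 6.19. The 3 other pups of mother 3, CSD 9, CSD 5 and CSD 3, were at 7.87, 8.04 and 9.43. The gene was above background on 5 of 8 CSD and on 8 of 8 VD arrays. The fitted difference was -2.10 (SE 0.42, adjusted p = 0.0256), and without the litter of mother 4 it was -1.35 (adjusted p = 0.166). On the other 3 CSD arrays the gene was not well above background, and the size moved with the treatment of dim signals and probes. It was -3.00 with a normexp offset of 0 (adjusted p = 0.0534), -3.67 with the scanner's own background correction (0.0441), -3.51 with the brightest probe (0.0278) and -2.99 in the deposited matrix (0.0446).

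**Figure D5:**
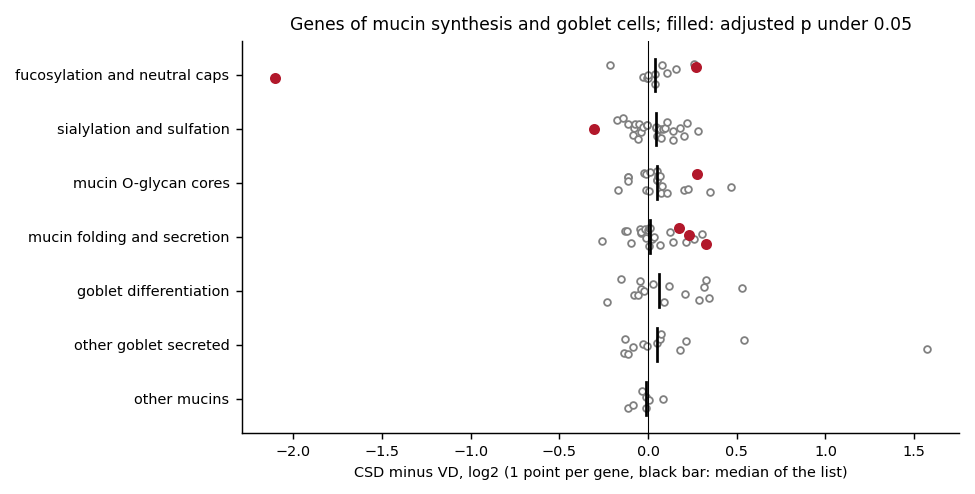
Difference between CSD and VD pups (log2, horizontal axis) of every gene in 7 lists of mucus and goblet cell genes; each point is a gene, filled where the adjusted p was under 0.05, and black bars are list medians. Of 7 filled points, B4galnt2 lies farthest out at -2.10, and the list medians lie between -0.01 and 0.06.

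Muc1 was called in 33 of the 39 alternatives tried, while the 7 genes called in the lists were called in 9 (Galnt7) to 27 (Pdia3 and B4galnt2) of them. When the correlation of pups within litters was set to 0.1, a value above the estimate, Muc1 was still called and none of Pdia3, Pdia6, Rab27a, Galnt7, Chst2, Fut8 and B4galnt2 was.

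Markers of other cells were read on the same arrays. All 10 absorptive colonocyte genes were on the higher side in CSD pups, with a median of 0.23. Limma called 0 of them, and 2 of 10 reached an unadjusted p of 0.05, beside 14.5% of all genes. Their summed level was 18.32 to 18.84 in CSD pups (median 18.52) and 18.15 to 18.74 in VD pups (median 18.29), and the brightest probe was that of Saa1. All 7 leukocyte genes were on the lower side, with a median of -0.26. Limma called 0 of them, 5 of 7 reached an unadjusted p of 0.05, beside the same share of all genes, and all 7 were above background on all arrays. Their summed level was 12.79 to 15.44 in CSD pups (median 14.13) and 14.62 to 16.11 in VD pups (median 15.13), and the brightest probe was that of Jchain. Of the 9 epithelial genes, 6 were higher and 3 lower with a median of 0.08, and of the 7 smooth muscle genes 6 were lower with a median of -0.13. Of 6 Paneth cell genes, a list that also holds Itln1, 4 were on the array, 3 on the higher and 1 on the lower side. Limma called 0 of them, and 1 reached an unadjusted p of 0.05, Lyz1, which differed by -0.34. Their summed level was 13.67 to 16.25 in CSD pups (median 15.58) and 13.58 to 16.47 in VD pups (median 14.05). The brightest probe was that of Lyz1, and the sum also carried the spread of Itln1. At the highest and lowest sums Itln1 was 16.11 (CSD 2) and 12.40 (CSD 8), and 16.21 (VD 4) and 8.94 (VD 7). Mmp7, a defining Paneth cell marker, was above background on 1 of the 16 arrays. The part of cell composition in the values of mucins and goblet cell genes was not tested.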

How the data were processed

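Colon RNA of 16 pups was measured on 1-colour Agilent arrays, 1 array per pup, with groups, mothers, sexes and pup numbers taken from the labels. The authors deposited scanner output (Feature Extraction 12.0.3.2), in which each spot has a mean intensity and a median background intensity, and a matrix of 27036 genes in log2 units, made by the authors with limma (3.38 in the submitters' processing notes). Here the intensities were corrected by normexp (offset 50), control and outlier spots were left out, and log2 values were quantile normalized with limma 3.58.1 in R 4.3.3. Probes above the 5% quantile of their array on at least 4 arrays were kept and averaged by gene, which left 36711 genes. The array design number in the scanner output differs from that in the paper's methods, and gene names are those of the scanner output. The deposited matrix correlated with the values used here at 0.977 per array and served as an alternative.

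CSD and VD pups were compared by lmFit and eBayes with sex as a fixed effect and mother as a random effect (duplicateCorrelation, consensus 0.015), and p-values were adjusted by Benjamini-Hochberg over all genes. In simulated independent pups this consensus came out below its true value, which makes p-values somewhat small, so a fit with a correlation of 0.1 was added after seeing the data. Single values were also compared by exact permutation over all assignments, which leaves litter and sex aside and was not adjusted over genes. Differences between sexes, their interaction with delivery and differences between litters used the same data. Members and lists were chosen with earlier results of these data known. The genes named were the 10 members, the called genes of each list or otherwise the 2 with the smallest p, and the 5 closest in pattern to Muc2 and to Muc3. Of the latter, 1 is not reported here. Probe and promoter sequences came from the scanner output and from RefSeq. The number of arrays limits the precision. P-values measure the spread between pups of 2 litters a group, not between litters drawn at random.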

Additional observations from a re-analysis of the deposited data

Results flagged for a closer look

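In the 20 sets of values tested (10 genes in 2 groups of 8 pups) 1 pup stood far from its group. Muc2 in VD 11 was 12.891, below the next VD pup at 13.284, a gap of 0.542 of the whole range of the group. Chance alone flags about 1 in 20 such sets. Without VD 11 the difference of Muc2 between CSD and VD pups was 0.14 (SE 0.10, adjusted p = 0.586 in limma), against 0.20 with it, and for Fcgbp it was 0.53 (SE 0.14, adjusted p = 0.0904). Leaving out CSD 8 moved these differences further, to 0.104 for Muc2 (SE 0.105, adjusted p = 0.726) and 0.469 for Fcgbp (SE 0.135, adjusted p = 0.105).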

How the results depend on the processing

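Muc1 kept its lower level in CSD pups in all 39 alternatives (differences from -0.80 to -0.58) and its call in 33. The call was lost with litter means as samples (adjusted p = 0.233), in males only (0.11), on slide 1 (0.405) or slide 2 alone (0.21), under the replicate block (0.122) and without the litter of mother 5 (0.156). In each of these fewer samples entered the fit. Fewer also entered without a single pup or without the litter of mother 3, 4 or 6, where the call was kept. Where the Muc1 call was lost, the number of the 10 genes called was 0, and 2 to 4 had an unadjusted p under 0.05. It was 2 without sex in the model, with an adjusted p under 0.1 and without the litter of mother 6, Fcgbp being the addition (adjusted p of 0.0308, 0.0722 and 0.0338). Leaving out single pups or litters gave 0 to 2 genes. The gene-wide count of 460 became 102 and 243 with normexp offsets of 0 and 16. It was 189 with the scanner-corrected signal after quantile normalization, 121 after subtraction of the 75th percentile and 170 with the deposited matrix. It was 992 without sex, 1126 at an adjusted p under 0.1 and 84 with a litter correlation of 0.1. It was 11 on slide 1 and 0 on slide 2, in males and with litter means (3788, 3295 and 4034 at an unadjusted p under 0.05). Leaving out pups or litters gave 138 (mother 4) to 2265 genes (mother 6). The interaction gave 2 genes with the scanner-corrected signal or slide in the model. Between mothers 6 and 5, the scanner-corrected signal gave 153 genes. There Muc13 was lost (0 of 10 called) with that signal, the deposited matrix and slide in the model, with 1, 2 and 2 genes at an unadjusted p under 0.05. The cause was not tested.

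The pups' numbers, of which 5 occur in both groups, were not taken to pair them. Deviations of same-numbered pups correlated between -0.049 and 0.215. For numbers 5 and 6 the same-numbered VD pup was the closest VD pup, and for 7, 8 and 9 another was. Whether the numbers pair pups was not tested. The number was also used as replicate block in the pups whose number occurs in both groups. There 0 of the 10 genes and 0 of all genes were called (2 and 3581 at an unadjusted p under 0.05).

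Muc2, Fcgbp, Agr2, Muc1 and Muc20 never changed direction. The 5 others, all uncalled, did. Muc4 was 0.017 and 0.000 with offsets of 0 and 16, 0.005 after subtraction of the 75th percentile, 0.010 with the brightest probe, 0.011 with litter means, 0.088 in males and 0.080 on slide 2. Tff3 was -0.004 without sex, -0.020 with litter means and -0.030 on slide 2. Zg16 was 0.069 after subtraction of the 75th percentile and 0.082 on slide 1. Muc13 was 0.021 in males, and Muc3 was 0.299 on slide 1. Leaving out pups or litters gave ranges of -0.142 to 0.117 for Muc4, -0.093 to 0.103 for Tff3, -0.117 to 0.032 for Zg16, -0.257 to 0.286 for Muc13 and -1.459 to 0.137 for Muc3. Probes near background, as for Muc20 and Muc4, give no measure of change.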
